A study of Mus musculus with 12 samples.

Results

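The wild-type osteoclast cultures titled R40D3 were compared with the wild-type cultures titled R0D3, across all expressed genes. The members were the libraries with the genotype Wt and these titles, replicates 1 and 2 of each, so 4 of the 12 samples of the series, and libraries with the same replicate number were treated as a pair. The series measured, by RNA sequencing of mouse samples, Wt samples and samples labelled as conditional knockouts (cKO) of Impdh2, an enzyme of guanine nucleotide synthesis: Prx-cKO for embryonic forelimbs and LysM-cKO for osteoclast cultures. Per the labels' protocols, bone marrow cells of Wt or Impdh2 LysM-cKO mice spent 3 days in medium conditioned by L929 cells, a source of the growth factor M-CSF taken as 20 ng/ml. The macrophages that attached were scraped off, seeded again and given the cytokine RANKL at 40 ng/ml with conditioned medium. The labels do not spell out R40D3 and R0D3 and give all 8 culture samples the same treatment, and the titles serve here only to name the groups. Neither the age and number of the mice nor any pooling is given in the labels. Nothing says that replicates came from separate animals, so the p-values measure only the spread between these samples.

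Osteoclasts are the cells that resorb bone. They form when RANKL binds its receptor RANK on macrophage precursors: adaptor proteins of the TRAF family activate NF-kappaB and AP-1, calcium signals from ITAM-bearing receptors join in, and the transcription factor NFATc1 then drives the osteoclast genes. The precursors fuse into large multinucleated cells, attach through integrin-rich podosomes, pump acid onto the bone surface through the vacuolar ATPase, and secrete proteases that digest the collagen matrix.

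The Wt libraries held 16266611 to 19221865 counts. Of 14030 genes tested, 3977 (28.3%) passed an adjusted p of 0.05 in edgeR's quasi-likelihood test, 2346 (16.7%) of them higher in R40D3 and 1631 (11.6%) lower. The rises were larger than the falls. The median called rise was 1.78-fold and the median called fall 1.44-fold, whereas the median log2 fold change of all genes tested was 0.01. At least 2-fold changes numbered 958 rises and 246 falls, and at least 8-fold changes 201 rises and 2 falls, with genes of at most 3 counts in each library of the lower group taken at their lower bound. All 3977 called genes had the same sign in both pairs, which is no separate support, since a call in the paired fit favours it. In 3901 of them the groups did not overlap, which was also so for 62.0% of all genes tested. Without the replicate block 2366 genes were called, 1593 higher and 773 lower. With upper-quartile scaling the split turned to 2029 higher and 2393 lower. Leaving out R0D3 replicate 2 left 2040 calls, of which 1332 were higher and 708 lower, and leaving out R40D3 replicate 2 left 2184, of which 1377 were higher and 807 lower. Without R0D3 replicate 1 there were 999 lower calls. The 2346 higher genes took 12.6% and 12.8% of all counts in the R0D3 libraries and 23.8% and 27.96% in the R40D3 libraries. The lower genes took 37.7% and 37.2% of the counts in R0D3 and 26.0% and 22.9% in R40D3.

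**Figure D1:**
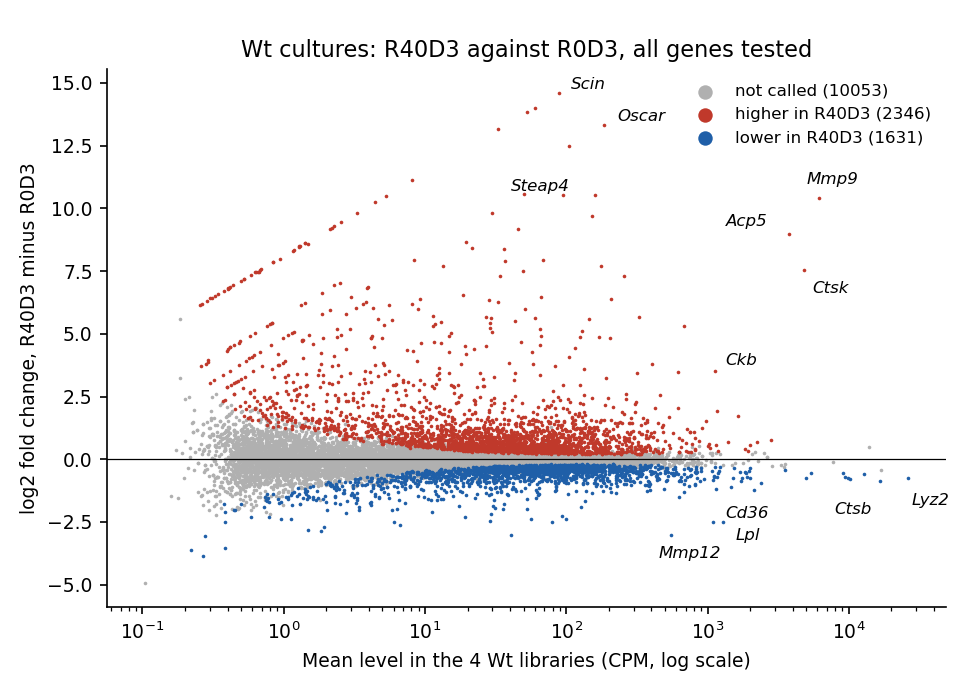
Each point is one of the 14030 genes tested in the Wt cultures, by its mean level in the 4 Wt libraries (CPM, log axis) and its log2 fold change. The 2346 red genes were higher in R40D3 and the 1631 blue genes lower, and the points on straight lines at the upper left are genes with few or no counts in R0D3, whose fitted fold changes have no fixed size.

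The labelled cell type, osteoclast, was checked against osteoclast markers. In the R0D3 libraries the calcitonin receptor gene Calcr had 0 counts in both, and Dcstamp stood at 2.27 and 0.994 CPM (counts scaled to library size). Other osteoclast genes were present there, with Acp5 at 15.8 and 13.1 CPM and Ctsk at 60.6 and 40.3 CPM. Atp6v0d2 was higher still in R0D3, at the levels given below. In the R40D3 libraries Calcr stood at 89.4 and 122 CPM and Dcstamp at 293 and 411 CPM. Macrophage markers were present in all 4 libraries, with Csf1r, the M-CSF receptor gene, at 2326 and 2241 CPM in R0D3 and 2870.5 and 2556 CPM in R40D3 (log2 fold change 0.24, SE 0.12, adjusted p = 0.168 by edgeR) and the lysosomal marker Cd68 at 1893 and 1977 CPM in R0D3 and 1849 and 1961 CPM in R40D3 (adjusted p = 0.887). Both were among the 9 not called of 22 macrophage identity genes tested, of which 13 were lower and 0 higher (11.6% and 16.7% of all genes tested). Csf1r was the only 1 of the 22 with a positive log2 fold change. The R40D3 libraries therefore held markers of the labelled cell type. In the R0D3 libraries Calcr and Dcstamp were at or near 0, and macrophage markers were high. Acp5 and Ctsk were present in R0D3 at far lower levels than in R40D3. These are bulk samples, in which fewer cells of a type and less RNA per cell cannot be told apart.

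The genes of bone resorption rose together. All 12 of the 12 listed genes tested were higher (background 16.7%), with a median log2 fold change of 3.21. Mmp9, a gelatinase secreted by osteoclasts, stood at 13.2 and 4.78 CPM in R0D3 and 10532 and 14166 CPM in R40D3 (log2 fold change 10.41, SE 0.64, adjusted p = 1.35e-05 by edgeR). Ctsk, the collagen-digesting protease cathepsin K, stood at 60.6 and 40.3 CPM in R0D3 and 7447 and 11622 CPM in R40D3 (log2 fold change 7.56, SE 0.60, adjusted p = 4.61e-05 by edgeR). Acp5, the tartrate-resistant acid phosphatase used as the histological stain of osteoclasts, stood at 15.8 and 13.1 CPM in R0D3 and 5663 and 9371 CPM in R40D3 (log2 fold change 8.96, SE 0.38, adjusted p = 1.78e-06 by edgeR). Both R40D3 libraries lay far above both R0D3 libraries for each of these 3 genes, and replicate 2 was the higher of the R40D3 libraries each time. They were also the 3 largest gains in CPM among the called genes. Per kilobase of exon, the mean R40D3 level was 6306 RPKM for Ctsk, 3703 for Acp5 and 3489 for Mmp9, below the 14913 RPKM of the macrophage lysozyme gene Lyz2. The membrane collagenase gene Mmp14 stood at 50.2 and 58 CPM in R0D3 and 678 and 845 CPM in R40D3 (log2 fold change 3.81, SE 0.31, adjusted p = 5.51e-05 by edgeR). Calcr, which lets calcitonin halt resorption, had 0 counts in both R0D3 libraries and was at least 585-fold higher in R40D3, against a floor of 3 counts per library. Plekhm1, which guides lysosomes to the bone-facing membrane, had the smallest rise of the list (log2 fold change 0.41, SE 0.08, adjusted p = 0.00688), and its call was lost without R0D3 replicate 2 (adjusted p = 0.0919), R40D3 replicate 1 (adjusted p = 0.0537) or R40D3 replicate 2 (adjusted p = 0.0897).

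**Figure D2:**
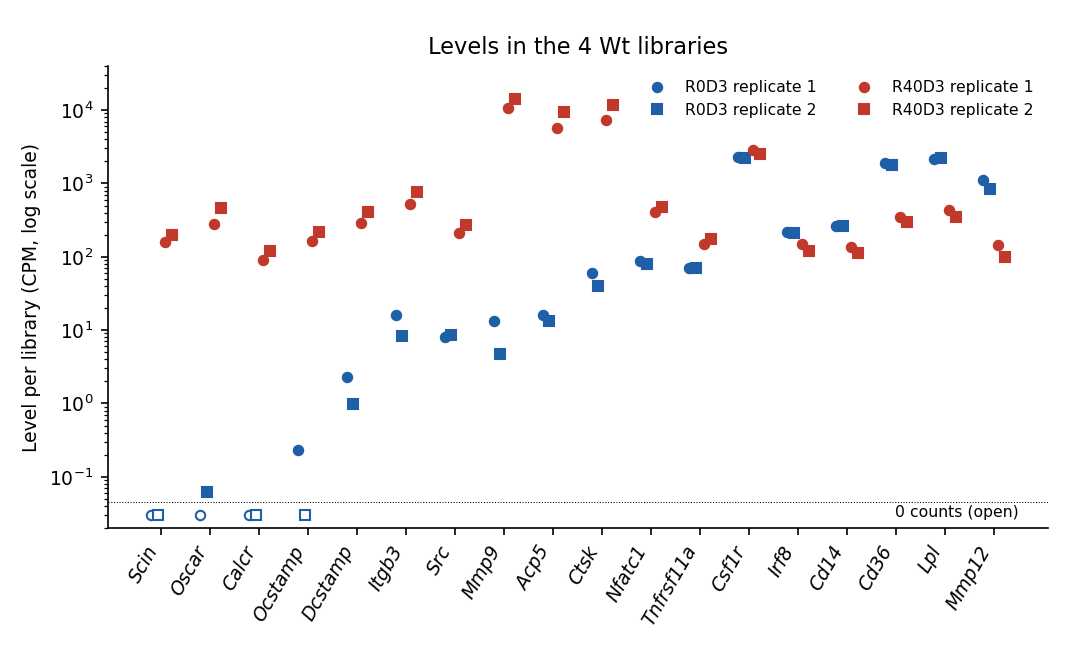
Levels of 18 genes in each of the 4 Wt libraries (CPM, log axis), with circles for replicate 1 and squares for replicate 2. The R40D3 points lie above the R0D3 points from Scin to Tnfrsf11a and below them from Irf8 to Mmp12, while those of Csf1r lie close together.

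Acid secretion was the next group. Of 19 subunits and accessory proteins of the vacuolar ATPase tested, 16 were higher and 1 lower (background 16.7% and 11.6%), with a median log2 fold change of 1.04. Atp6v0d2, a subunit enriched in osteoclasts, stood at 275 and 205 CPM in R0D3 and 869 and 1116 CPM in R40D3 (log2 fold change 2.03, SE 0.22, adjusted p = 2.75e-04 by edgeR). Atp6v1b2, a catalytic-head subunit and one of the 10 largest gains in CPM, stood at 775 and 736 CPM in R0D3 and 2209.5 and 2871 CPM in R40D3 (log2 fold change 1.73, SE 0.16, adjusted p = 9.57e-05 by edgeR). The pump's membrane a subunits did not move alike. Tcirg1, the a subunit whose loss causes osteopetrosis, stood at 428 and 443 CPM in R0D3 and 870.3 and 1134 CPM in R40D3 (log2 fold change 1.19, SE 0.12, adjusted p = 1.88e-04 by edgeR), whereas its paralogue Atp6v0a1 was at 555 and 567 CPM in R0D3 and 342 and 317 CPM in R40D3 (log2 fold change -0.77, SE 0.09, adjusted p = 4.98e-04 by edgeR). Rises were also called for Atp6v1e1, Atp6v1d and Atp6v1h, with log2 fold changes of 1.70, 1.66 and 1.45. Proton supply showed a change of another order: Car2, the carbonic anhydrase that makes the protons, had 1 count in the 2 R0D3 libraries together and stood at 180.5 and 239.5 CPM in R40D3. That is a ratio of 6912 with an exact 95% counting interval of 1240.2 to 273060. The chloride transporter genes Clcn7 and its partner Ostm1 had log2 fold changes of 1.08 and 0.65 (adjusted p = 7.58e-04 and 5.17e-04). Slc4a2, the chloride and bicarbonate exchanger, stood at 74.7 and 73.6 CPM in R0D3 and 393 and 518 CPM in R40D3 (log2 fold change 2.60, SE 0.15, adjusted p = 1.07e-05 by edgeR).

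Fusion genes changed in both directions. Of 12 tested, 6 were higher and 4 lower (background 16.7% and 11.6%), with a median log2 fold change of 0.61. Ocstamp, the gene of a membrane protein of osteoclast fusion, stood at 0.233 and 0 CPM in R0D3 and 163 and 219 CPM in R40D3 (log2 fold change 10.55, adjusted p = 5.52e-09 by edgeR). With only 4 and 0 counts in R0D3 the size of its fold is uncertain, and its log2 fold change ranged from 9.33 to 14.97 across the alternative runs. Dcstamp stood at the levels given above (log2 fold change 7.71, SE 0.31, adjusted p = 1.33e-06 by edgeR). Siglec15, a sialic acid receptor of fusing osteoclasts, stood at 0.466 and 0.373 CPM in R0D3 and 56.3 and 77.7 CPM in R40D3 (log2 fold change 7.29, from 8 and 6 counts in R0D3, adjusted p = 9.65e-08 by edgeR). Snx10, a sorting nexin needed for osteoclast formation, was at 97.9 and 99.7 CPM in R0D3 and 961 and 1299 CPM in R40D3 (log2 fold change 3.49, SE 0.16, adjusted p = 2.54e-06 by edgeR), a gain in CPM among the 10 largest. For these 4 genes each R40D3 library was well above each R0D3 library. Lower were the metalloprotease gene Adam8, at 934 and 919 CPM in R0D3 and 381 and 278 CPM in R40D3 (log2 fold change -1.49, adjusted p = 4.22e-04) and the tetraspanin gene Cd9, at 307 and 301 CPM in R0D3 and 163 and 182 CPM in R40D3 (log2 fold change -0.83, adjusted p = 7.18e-04). The other lower calls, Sirpa and Cd81, were not called without the replicate block (adjusted p = 0.103 and 0.0753), which left 2 lower. The count of lower members was also 2 with R0D3 replicate 1 left out, 2 with R0D3 replicate 2 left out and 2 with R40D3 replicate 2 left out. Sirpa lost its call without R0D3 replicate 1 (adjusted p = 0.144), R0D3 replicate 2 (adjusted p = 0.102) or R40D3 replicate 2 (adjusted p = 0.12), and Cd81 without any 1 of the 4 Wt libraries (adjusted p = 0.218 at most).

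Genes of podosomes and the sealing zone, the actin ring by which an osteoclast grips bone, were mostly higher. Of 22 tested, 12 were higher (background 16.7%) and 2 lower, a share below the background of 11.6%, with a median log2 fold change of 0.82. Itgb3, the beta chain of the osteoclast's vitronectin receptor, stood at 16 and 8.2 CPM in R0D3 and 518 and 760 CPM in R40D3 (log2 fold change 5.67, SE 0.41, adjusted p = 3.03e-05 by edgeR). Its partner chain gene Itgav was at 104 and 105 CPM in R0D3 and 328 and 449 CPM in R40D3 (log2 fold change 1.87, SE 0.11, adjusted p = 1.29e-05 by edgeR). Src, the kinase that organises the ring, stood at 8.03 and 8.51 CPM in R0D3 and 213 and 271 CPM in R40D3 (log2 fold change 4.86, SE 0.34, adjusted p = 2.44e-05 by edgeR). Scin, which encodes the actin-severing protein scinderin, had 0 counts in both R0D3 libraries and stood at 157 and 196 CPM in R40D3, at least 979.9-fold higher. Other integrin chains went the other way: Itgb5 was at 392.1 and 403 CPM in R0D3 and 254 and 217 CPM in R40D3 (log2 fold change -0.76, SE 0.09, adjusted p = 3.11e-04 by edgeR). The leukocyte integrin chain gene Itgb2 was lower (log2 fold change -0.41) but not without the replicate block (adjusted p = 0.0768), nor without R0D3 replicate 1 (adjusted p = 0.0767), R0D3 replicate 2 (adjusted p = 0.0831) or R40D3 replicate 2 (adjusted p = 0.0738), each of which left 1 lower member. The adaptor and actin-binding genes Pstpip1, Rac2, Cttn and Pxn had log2 fold changes of 1.57, 1.44, 1.40 and 1.10. The general cytoskeletal genes Tln1 (log2 fold change 0.24, adjusted p = 0.0877), Itgb1 (-0.15, adjusted p = 0.202) and Gsn (-0.03, adjusted p = 0.847) did not pass the test.

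**Figure D3:**
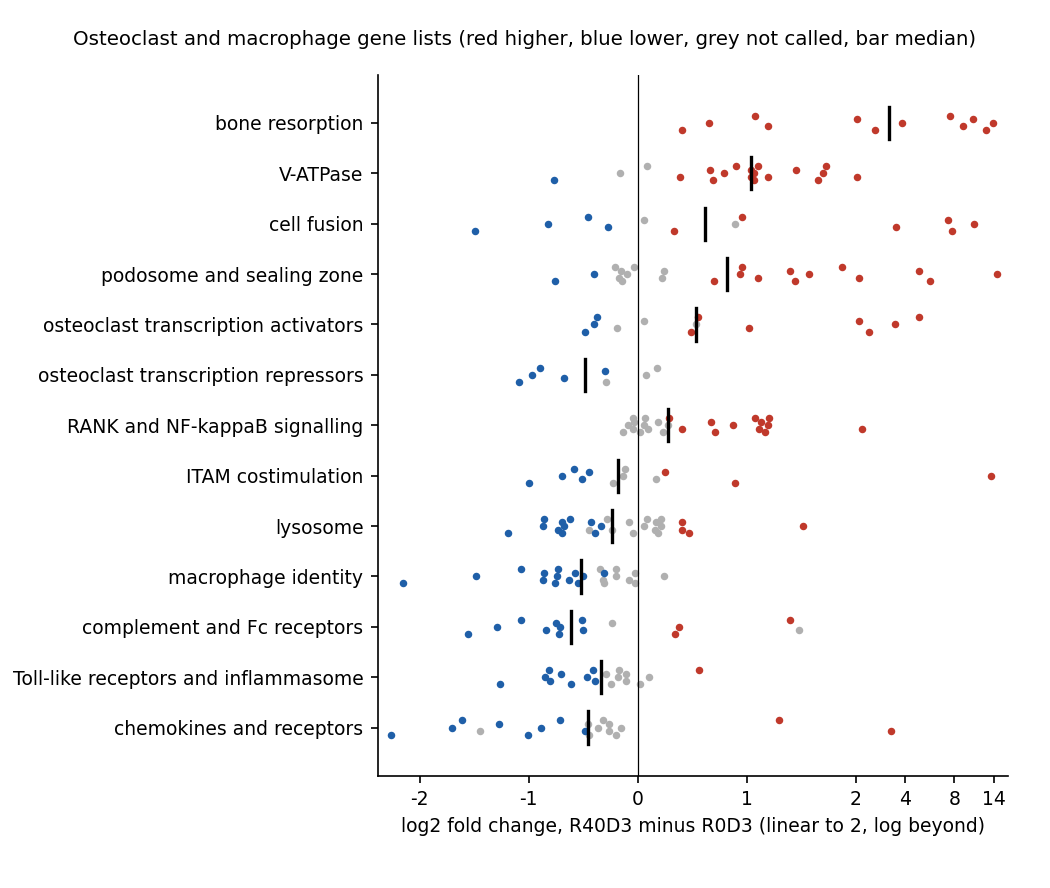
Log2 fold changes of the members tested in 13 gene lists, 1 point per gene, red where higher, blue where lower and grey where not called, with a bar at each median (axis linear to 2 and logarithmic beyond). Bone resorption, the vacuolar ATPase and the podosome list lie mostly to the right of 0, and macrophage identity, complement and Toll-like receptors mostly to the left.

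In the RANK and NF-kappaB pathway 12 of 24 genes were higher and 0 lower (background 16.7% and 11.6%), with a median log2 fold change of 0.28. Tnfrsf11a, the gene of RANK itself, stood at 70.1 and 70.1 CPM in R0D3 and 150.1 and 175 CPM in R40D3 (log2 fold change 1.21, SE 0.10, adjusted p = 4.86e-05 by edgeR). The adaptor gene Traf6 stood at 49.3 and 48 CPM in R0D3 and 93 and 112 CPM in R40D3 (log2 fold change 1.07, SE 0.09, adjusted p = 6.75e-05 by edgeR). The inhibitors of the pathway were higher too. Nfkbia, which encodes IkappaB-alpha, stood at 42.8 and 50.9 CPM in R0D3 and 185 and 244 CPM in R40D3 (log2 fold change 2.19, SE 0.10, adjusted p = 3.03e-06 by edgeR), and Tnfaip3, which encodes the deubiquitinase A20, had a log2 fold change of 1.16 (adjusted p = 9.90e-05). The non-canonical arm was represented by Nfkb2, Relb and the inhibitory adaptor gene Traf3, with log2 fold changes of 1.19, 0.88 and 1.11. The canonical subunit genes Nfkb1 and Rela had log2 fold changes of 0.06 and -0.04 and did not pass the test (adjusted p = 0.51 and 0.775).

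The ITAM arm, through which immunoreceptors raise calcium, was split. Of 12 genes tested, 3 were higher and 5 lower (background 16.7% and 11.6%), and their median log2 fold change was -0.19. Oscar, an osteoclast receptor for collagen that signals through the adaptor FcRgamma, had 1 count in the R0D3 libraries together and stood at 284 and 462 CPM in R40D3, a ratio of 12184 with an exact 95% counting interval of 2186 to 481260. Trem2, the receptor that pairs with the adaptor DAP12, moved the opposite way, at 866 and 939 CPM in R0D3 and 470.1 and 429.9 CPM in R40D3 (log2 fold change -1.002, SE 0.10, adjusted p = 1.49e-04 by edgeR). Among the adaptors, Fcer1g, the gene of FcRgamma, was at 694 and 715 CPM in R0D3 and 463 and 477 CPM in R40D3 (log2 fold change -0.58, SE 0.07, adjusted p = 5.22e-04 by edgeR), while Tyrobp, the gene of DAP12, did not pass the test (log2 fold change -0.14, adjusted p = 0.211). In the calcium and calcineurin list 2 of 12 genes were higher and 1 lower, with a median log2 fold change of -0.08, so neither share was above the background (16.7% higher and 11.6% lower). The higher ones were Rcan1, a calcineurin inhibitor that is itself an NFAT target, at 27.6 and 28.3 CPM in R0D3 and 114 and 142 CPM in R40D3 (log2 fold change 2.18, SE 0.12, adjusted p = 6.48e-06 by edgeR), and the inositol trisphosphate receptor gene Itpr3 (log2 fold change 1.52, adjusted p = 4.75e-05). The lower one, the calcium pump gene Atp2b1 (log2 fold change -0.36, adjusted p = 0.00991), was not called without the replicate block (adjusted p = 0.102) or without R0D3 replicate 2 (adjusted p = 0.122) or R40D3 replicate 2 (adjusted p = 0.0684).

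Transcription factors that drive osteoclast genes were higher in 7 of 13 cases and lower in 3 (background 16.7% and 11.6%), with a median log2 fold change of 0.53. Nfatc1 stood at 87.7 and 79.4 CPM in R0D3 and 413 and 479 CPM in R40D3 (log2 fold change 2.41, SE 0.14, adjusted p = 1.02e-05 by edgeR). Larger folds were seen for the AP-1 family genes Jdp2, at 10.8 and 11.4 CPM in R0D3 and 272 and 386 CPM in R40D3 (log2 fold change 4.87, SE 0.24, adjusted p = 4.72e-06 by edgeR), and Fosl2, at 58.9 and 46.7 CPM in R0D3 and 485 and 675 CPM in R40D3 (log2 fold change 3.44, SE 0.26, adjusted p = 3.45e-05 by edgeR). Prdm1, the gene of the repressor Blimp1 that silences inhibitors of osteoclast formation, was at 30.5 and 27.4 CPM in R0D3 and 112 and 134 CPM in R40D3 (log2 fold change 2.08, SE 0.12, adjusted p = 1.19e-05 by edgeR). All 4 were clear of overlap between the groups. Fos was different: it stood at 25.6 and 170.1 CPM in R0D3 and 66.8 and 275 CPM in R40D3, so the groups overlapped, although it was higher in R40D3 within each pair (log2 fold change 1.02, adjusted p = 8.74e-04). Without the replicate block Fos was not called (adjusted p = 0.715), and nor was Junb (adjusted p = 0.51). The lower genes were Mitf, Tfeb and Jun, with log2 fold changes of -0.40, -0.49 and -0.38. Jun was not called without the replicate block (adjusted p = 0.0655) or without R0D3 replicate 1 (adjusted p = 0.168), R40D3 replicate 1 (adjusted p = 0.0646) or R40D3 replicate 2 (adjusted p = 0.0865), and Tfeb was not called without R0D3 replicate 2 (adjusted p = 0.0602). Leaving out R40D3 replicate 2 also ended the call of Junb (adjusted p = 0.0581).

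Repressors of osteoclast formation were lower in 5 of 8 cases and higher in 0 (background 11.6% lower), with a median log2 fold change of -0.49. Bcl6 was at 47.8 and 44.9 CPM in R0D3 and 24 and 19.4 CPM in R40D3 (log2 fold change -1.09, SE 0.15, adjusted p = 9.32e-04 by edgeR). The interferon regulatory factor gene Irf8 was at 219.6 and 209 CPM in R0D3 and 148 and 121 CPM in R40D3 (log2 fold change -0.68, SE 0.10, adjusted p = 0.0013 by edgeR). Each R40D3 library was below each R0D3 library for both genes. Id2 was also lower (log2 fold change -0.97, adjusted p = 6.91e-04), with an adjusted p of 0.0502 without the replicate block, and Rbpj had a log2 fold change of -0.30 with an adjusted p of 0.0608 without the block. Rbpj was not called without R0D3 replicate 1 (adjusted p = 0.0572), R0D3 replicate 2 (adjusted p = 0.186), R40D3 replicate 1 (adjusted p = 0.056) or R40D3 replicate 2 (adjusted p = 0.0798).

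Genes of the AP-1 family were among the factors that rose (Jdp2, Fosl2) and that fell (Jun), so promoters were searched for the letters TGANTCA, a loose form of the AP-1 motif, which reads the same on both strands. N stands for any base, so TGAATCA and TGATTCA were counted along with TGAGTCA and TGACTCA. The 250 bases before each start in RefSeq (GRCm38.p6) were searched for the 10201 tested genes that had an entry, of 14027 symbols. Some genes have several RefSeq starts: 13012 stretches were searched, 1.28 per gene, and a gene was counted where any of its stretches held the motif. That was so for 5.67% of all these genes, for 5.12% of genes not called (1.26 stretches per gene), for 6.64% of higher genes (1.28) and for 7.42% of lower genes (1.35). Among genes at least 4-fold higher, with genes of at most 3 counts in each R0D3 library taken at their lower bound, it was so for 30 of 274, or 10.9% (1.28 stretches per gene). The motif was seen beside genes that moved in both directions, and 4 examples are shown, 2 of higher and 2 of lower genes, as the 120 bases before the start, 5′ to 3′ on the gene's strand, with the motif in capitals.
Rufy4 (chr1:74125421-74125540, plus strand): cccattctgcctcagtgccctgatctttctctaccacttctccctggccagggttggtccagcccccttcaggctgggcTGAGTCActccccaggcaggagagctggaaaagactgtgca
Glb1 (chr9:114400958-114401077, plus strand): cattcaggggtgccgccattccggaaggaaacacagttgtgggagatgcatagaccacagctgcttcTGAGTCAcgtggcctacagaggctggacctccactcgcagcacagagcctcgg
Mmp13 (chr9:7272394-7272513, plus strand): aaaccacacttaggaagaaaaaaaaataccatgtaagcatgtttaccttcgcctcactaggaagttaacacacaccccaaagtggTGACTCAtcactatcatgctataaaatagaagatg
C3ar1 (chr6:122856158-122856277, minus strand): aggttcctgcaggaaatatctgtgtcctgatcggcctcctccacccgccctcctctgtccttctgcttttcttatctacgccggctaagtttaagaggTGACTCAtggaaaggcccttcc
Counted from its first base, the motif began 41 bases before the RefSeq start of Rufy4, 53 before that of Glb1, 35 before that of Mmp13 and 22 before that of C3ar1. These starts lay 0, 2, 0 and 4 bases from the start of the annotated gene. The log2 fold changes were 1.51 for Glb1, -2.51 for Mmp13 and -1.07 for C3ar1, and Rufy4 had 0 counts in R0D3. A match of letters is a description of the sequence. Binding of any factor was not measured here. The letters GGAAAA, the NFAT core, were found, counted the same way, for 21.6% of all genes and 21.5% of those at least 4-fold higher. Those of PU.1 (GAGGAAGT) were found for 3.25% and 1.82%, and those of the CLEAR element of lysosomal genes (TCACGTGA), which can share bases with an AP-1 match, for 1.79% and 0.73%. The letters of the sterol regulatory element (CACCCCAC) were found for 3.39% and 5.84%, and the ERR site (TCAAGGTCA) for 0.304% and 0. All were searched on both strands. None of these shares was tested.

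Other genes with the largest rises included several with no textbook place in bone resorption. Rufy4, a gene of autophagy and lysosome positioning, had 0 counts in both R0D3 libraries and 100.3 and 139 CPM in R40D3, at least 664-fold higher. Msln, the gene of mesothelin, had 0 counts in R0D3 and 37.7 and 92.9 CPM in R40D3, at least 362-fold higher. The urea transporter gene Slc14a2 was at least 58.5-fold higher and Ttc23l at least 36.4-fold, both from 0 counts in R0D3. Ttc23l stood at 7.21 and 5.92 CPM in R40D3. The ratio for Nyap2 was 987 (exact 95% counting interval 273 to 8154) from 2 counts in R0D3. Kbtbd11, an adaptor of ubiquitin ligases, stood at 0.349 and 0.373 CPM in R0D3 and 259 and 349 CPM in R40D3 (log2 fold change 9.69, from 6 and 6 counts in R0D3, adjusted p = 4.88e-09 by edgeR). Steap4, a metalloreductase of iron uptake, stood at 0.291 and 0.124 CPM in R0D3 and 260.5 and 373 CPM in R40D3 (log2 fold change 10.52, from 5 and 2 counts in R0D3, adjusted p = 1.29e-08 by edgeR). Folds from so few counts are uncertain in size. Mt3, a metallothionein best known from the brain, had 2 counts in R0D3 and 78.1 and 122 CPM in R40D3, a ratio of 1634 with an exact 95% counting interval of 452 to 13495. The common metallothionein genes Mt1 and Mt2 had log2 fold changes of 0.63 and 0.63, neither called without the replicate block (adjusted p = 0.0822 and 0.164). The call of Mt2 was also lost without R0D3 replicate 1 (adjusted p = 0.0871), R0D3 replicate 2 (adjusted p = 0.0875), R40D3 replicate 1 (adjusted p = 0.0928) or R40D3 replicate 2 (adjusted p = 0.0877).

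Other large gains in CPM came from genes of varied roles. Arsb, a lysosomal sulfatase gene, stood at 29.6 and 36 CPM in R0D3 and 1079 and 1563 CPM in R40D3 (log2 fold change 5.31, SE 0.16, adjusted p = 2.92e-07 by edgeR). Slc37a2, a sugar phosphate transporter of the osteoclast's secretory lysosomes, stood at 507 and 455 CPM in R0D3 and 1605 and 2079.9 CPM in R40D3 (log2 fold change 1.92, SE 0.17, adjusted p = 8.55e-05 by edgeR). Ckb, brain-type creatine kinase, which regenerates ATP from phosphocreatine, stood at 163 and 194 CPM in R0D3 and 1604 and 2585 CPM in R40D3 (log2 fold change 3.50, SE 0.18, adjusted p = 5.27e-06 by edgeR). Creatine genes moved in both directions. Of 6 tested, 4 were higher and 1 lower (background 16.7% and 11.6%): the creatine transporter gene Slc6a8 had a log2 fold change of 0.68, and the mitochondrial creatine kinase gene Ckmt1 went from 0 counts to 6.64 and 11.1 CPM, at least 49.2-fold higher. Gatm, the first enzyme of creatine synthesis, was lower, at 41.1 and 41.6 CPM in R0D3 and 15.3 and 15.7 CPM in R40D3 (log2 fold change -1.41, SE 0.18, adjusted p = 5.64e-04 by edgeR). The Slc6a8 call was lost without R40D3 replicate 2 (adjusted p = 0.062).

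Nuclear genes of the respiratory chain were higher almost throughout. In complex I, 36 of 37 genes were higher and 0 lower, and their median log2 fold change was 0.91. In complexes II to IV with cytochrome c, 24 of 24 were higher, with a median of 1.16, and in ATP synthase 14 of 15, with a median of 0.96. The background was 16.7% higher. Ndufv1, a core subunit of complex I, stood at 38.7 and 48.6 CPM in R0D3 and 113 and 139 CPM in R40D3 (log2 fold change 1.53, SE 0.09, adjusted p = 1.35e-05 by edgeR). Cyc1, cytochrome c1 of complex III, stood at 41.2 and 44.6 CPM in R0D3 and 184 and 227 CPM in R40D3 (log2 fold change 2.25, SE 0.10, adjusted p = 3.03e-06 by edgeR), and Sdha, the flavoprotein of complex II, at 261 and 278 CPM in R0D3 and 625 and 784 CPM in R40D3 (log2 fold change 1.38, SE 0.10, adjusted p = 3.46e-05 by edgeR). Atp5b, the catalytic subunit gene of ATP synthase, was at 489 and 527 CPM in R0D3 and 1326 and 1593 CPM in R40D3 (log2 fold change 1.51, SE 0.11, adjusted p = 2.58e-05 by edgeR). For each of these genes the groups did not overlap, and the changes were of similar size in both pairs. The median of complex I was 0.84 in replicate 1 and 0.96 in replicate 2. The fit with no replicate block called 28 genes of complex I and 12 of ATP synthase higher.

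Genes of the mitochondrial genome, which encodes the other part of the respiratory chain, had a smaller median than the nuclear lists. Of 13 tested, 8 were higher and 0 lower (background 16.7% and 11.6%), with a median log2 fold change of 0.63. The gene with the highest level was mt-Co1, at 11883 and 11290 CPM in R0D3 and 15667 and 16666 CPM in R40D3, a complex IV gene that did not pass the test (adjusted p = 0.0647). Of the called ones, mt-Cytb, a complex III gene, was at 2248 and 1916 CPM in R0D3 and 3724 and 3349 CPM in R40D3 (log2 fold change 0.77, SE 0.12, adjusted p = 0.00169 by edgeR), and mt-Nd1, a complex I gene, at 1809 and 1666 CPM in R0D3 and 2799.7 and 2720.1 CPM in R40D3 (log2 fold change 0.67, SE 0.11, adjusted p = 0.00228 by edgeR). The fit with no replicate block had 3 of the 13 were higher, and the count was 5 with R0D3 replicate 1 left out and 4 with R40D3 replicate 2 left out. The share of all counts from this genome was 2.05% and 1.89% in R0D3 and 2.85% and 2.87% in R40D3. Regulators of mitochondrial biogenesis were led by Ppargc1b, the coactivator PGC-1beta, at 2.74 and 1.24 CPM in R0D3 and 35.8 and 37.8 CPM in R40D3 (log2 fold change 4.18, SE 0.29, adjusted p = 2.48e-05 by edgeR). Its partner nuclear receptor gene Esrra was at 47.9 and 52 CPM in R0D3 and 85.1 and 107 CPM in R40D3 (log2 fold change 0.94, SE 0.10, adjusted p = 1.84e-04 by edgeR). In that list 6 of 11 were higher (background 16.7%), with a median of 0.42, and 3 without the replicate block. The count was 3 with R0D3 replicate 1 left out, 2 with R0D3 replicate 2 left out, 3 with R40D3 replicate 1 left out and 2 with R40D3 replicate 2 left out. The packaging factor gene Tfam had a log2 fold change of 0.21 and did not pass the test (adjusted p = 0.177).

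**Figure D4:**
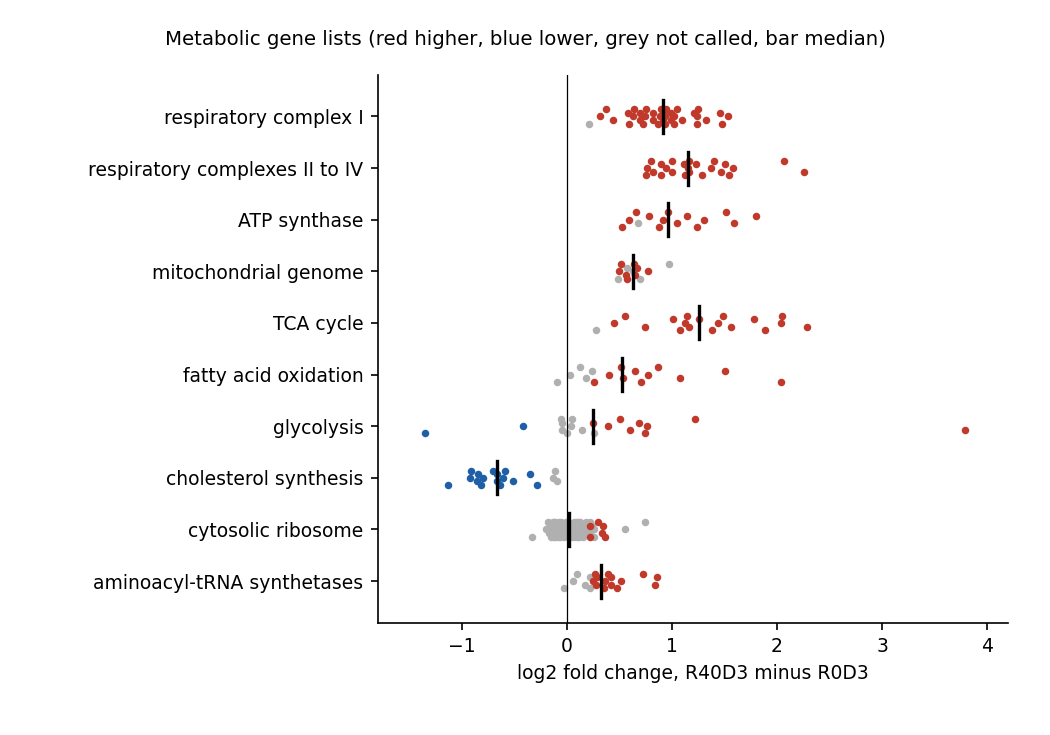
Log2 fold changes of the members tested in 10 metabolic and translation lists, 1 point per gene, red where higher, blue where lower and grey where not called, with a bar at each median. The respiratory and TCA lists lie wholly to the right of 0, cholesterol synthesis to the left, and cytosolic ribosome genes around 0.

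The TCA cycle, which feeds the respiratory chain, was higher in 18 of 19 genes (background 16.7%, also for fatty acid oxidation below), with a median log2 fold change of 1.25. Mdh2, mitochondrial malate dehydrogenase, stood at 101 and 111 CPM in R0D3 and 459 and 585 CPM in R40D3 (log2 fold change 2.29, SE 0.11, adjusted p = 3.28e-06 by edgeR). Idh3a, the catalytic subunit gene of isocitrate dehydrogenase, was at 31.5 and 33.1 CPM in R0D3 and 121 and 146 CPM in R40D3 (log2 fold change 2.04, SE 0.10, adjusted p = 4.94e-06 by edgeR). The exception was pyruvate carboxylase, Pcx, at 7.22 and 6.71 CPM in R0D3 and 8.62 and 8.24 CPM in R40D3 (adjusted p = 0.244). Fatty acid oxidation was higher in 11 of 16, with a median of 0.53, and in 7 with R40D3 replicate 2 left out. Acaa2, the thiolase that ends the cycle, stood at 33.3 and 39.7 CPM in R0D3 and 127 and 177 CPM in R40D3 (log2 fold change 2.04, SE 0.15, adjusted p = 2.77e-05 by edgeR). Its entry enzyme gene Cpt1a had a log2 fold change of 0.03 and did not pass the test (adjusted p = 0.883).

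Of 19 glycolysis genes, 9 were higher and 2 lower, with a median log2 fold change of 0.25. The higher share was above the background of 16.7%, and the lower share was below that of 11.6%. Ldhb, the lactate dehydrogenase chain that favours pyruvate, stood at 7.57 and 7.89 CPM in R0D3 and 93.2 and 123 CPM in R40D3 (log2 fold change 3.79, SE 0.22, adjusted p = 1.03e-05 by edgeR). Ldha, the chain that favours lactate, was at 262 and 292 CPM in R0D3 and 354 and 438 CPM in R40D3 (log2 fold change 0.51, adjusted p = 0.00157, and 0.092 without the replicate block). The hexokinases went in opposite directions: Hk1 was at 94.8 and 90.4 CPM in R0D3 and 148 and 164 CPM in R40D3 (log2 fold change 0.74, SE 0.08, adjusted p = 2.82e-04 by edgeR), and Hk3, the myeloid form, at 323 and 325 CPM in R0D3 and 139 and 114 CPM in R40D3 (log2 fold change -1.35, SE 0.17, adjusted p = 5.17e-04 by edgeR). Hk2 was also lower (log2 fold change -0.42) but not called without the replicate block (adjusted p = 0.0821) or without R0D3 replicate 1 (adjusted p = 0.0508), R0D3 replicate 2 (adjusted p = 0.149) or R40D3 replicate 1 (adjusted p = 0.0864). Without the block 5 glycolysis genes were higher. Gapdh stood at only 3.78 and 5.65 CPM in R0D3 and 4.44 and 5.25 CPM in R40D3, and its many near-identical copies make that level uncertain.

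Some protein synthesis genes rose by small amounts. Of 20 aminoacyl-tRNA synthetases, 14 were higher and 0 lower (background 16.7% and 11.6%, also for the lists that follow), with a median log2 fold change of 0.32. Iars, which charges isoleucine tRNA, stood at 68.9 and 76.3 CPM in R0D3 and 121 and 143 CPM in R40D3 (log2 fold change 0.86, SE 0.07, adjusted p = 4.17e-05 by edgeR). Gars, which charges glycine tRNA, had a log2 fold change of 0.84. With no replicate block 5 of the 20 were higher, and the count was 7 with R0D3 replicate 1 left out, 6 with R0D3 replicate 2 left out, 7 with R40D3 replicate 1 left out and 4 with R40D3 replicate 2 left out. Among nucleolar ribosome assembly genes, 8 of 25 were higher and 0 lower, with a median of 0.24, and 5 with R0D3 replicate 1 left out, 4 with R0D3 replicate 2 left out, 4 with R40D3 replicate 1 left out and 5 with R40D3 replicate 2 left out. Nolc1 and Nop2, both nucleolar, had log2 fold changes of 0.67 and 0.66. The 78 cytosolic ribosomal protein genes had 6 higher, a share of members below the background of 16.7%, with a median of 0.02 that turned to -0.06 with upper-quartile scaling. None of the 6 was called without the replicate block, and with 1 Wt library left out the count was 0 in 3 cases and 2 without R40D3 replicate 2. Leaving out R0D3 replicate 1 or R40D3 replicate 1 gave 1 lower gene in each case, in place of 0. These genes have many near-identical copies, so their levels are uncertain.

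Of 22 macrophage identity genes tested, 13 were lower (background 11.6%) and 0 higher, with a median log2 fold change of -0.52. Cd36, a scavenger receptor for oxidised lipids, was at 1929.8 and 1786 CPM in R0D3 and 354 and 295 CPM in R40D3 (log2 fold change -2.52, SE 0.12, adjusted p = 3.76e-06 by edgeR), a 5.74-fold fall. The endotoxin co-receptor gene Cd14 was at 261 and 259 CPM in R0D3 and 134 and 114 CPM in R40D3 (log2 fold change -1.07, SE 0.14, adjusted p = 6.45e-04 by edgeR), and the haemoglobin scavenger receptor gene Cd163 at 68.6 and 61.4 CPM in R0D3 and 38.9 and 32.7 CPM in R40D3 (log2 fold change -0.87, SE 0.13, adjusted p = 0.0013 by edgeR). Each R40D3 library lay below each R0D3 library for these genes. Adgre1, the gene of the F4/80 antigen, was at 1298 and 1418 CPM in R0D3 and 1149 and 1036 CPM in R40D3 (log2 fold change -0.32, SE 0.10, adjusted p = 0.0476 by edgeR), with an adjusted p of 0.122 without the block, and was not called without R0D3 replicate 1 (adjusted p = 0.0637), R0D3 replicate 2 (adjusted p = 0.342) or R40D3 replicate 2 (adjusted p = 0.182). Without the block 7 of the 22 were lower, and the count was 8 with R0D3 replicate 1 left out and 7 with R0D3 replicate 2 left out. The integrin gene Itgam (log2 fold change -0.20, adjusted p = 0.0786) and the receptor kinase gene Axl (-0.03, adjusted p = 0.917) did not pass the test.

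Lpl, lipoprotein lipase, was at 2149 and 2247 CPM in R0D3 and 428 and 347 CPM in R40D3 (log2 fold change -2.48, SE 0.24, adjusted p = 1.26e-04 by edgeR), a 5.6-fold fall, and was also among the 10 largest losses in CPM. The apolipoprotein gene Apoe is among the largest losses in CPM described further on. Cholesterol synthesis genes were lower in 16 of 19 cases and higher in 0 (background 11.6% and 16.7%), with a median log2 fold change of -0.67. Cyp51, a sterol demethylase, was at 107 and 109 CPM in R0D3 and 55.4 and 64.2 CPM in R40D3 (log2 fold change -0.86, SE 0.07, adjusted p = 7.95e-05 by edgeR). Dhcr7, a reductase of the final step, was at 56.8 and 58.6 CPM in R0D3 and 35.4 and 35.5 CPM in R40D3 (log2 fold change -0.70, SE 0.09, adjusted p = 6.42e-04 by edgeR). Insig1, a sterol-sensing regulator of the pathway, was at 169 and 171 CPM in R0D3 and 86.5 and 107 CPM in R40D3 (log2 fold change -0.82, SE 0.11, adjusted p = 6.53e-04 by edgeR). Srebf2, the transcription factor of the pathway, had a log2 fold change of -0.29, with an adjusted p of 0.327 without the block, and was not called without R0D3 replicate 1 (adjusted p = 0.217) or R40D3 replicate 1 (adjusted p = 0.15).

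The matrix metalloproteinases did not move together. Against the rises of Mmp9 and Mmp14 stood the largest fall among called genes with at least 5 CPM in R0D3, Mmp12, the macrophage elastase gene, at 1129 and 844 CPM in R0D3 and 145 and 100.2 CPM in R40D3 (log2 fold change -3.01, SE 0.14, adjusted p = 2.94e-06 by edgeR), 8.06-fold lower in R40D3. Mmp13, a collagenase gene, was at 12.7 and 7.95 CPM in R0D3 and 2.19 and 1.4 CPM in R40D3 (log2 fold change -2.51, SE 0.35, adjusted p = 9.90e-04 by edgeR). Of 11 metalloproteinase and inhibitor genes tested, 2 were higher and 5 lower, with a median log2 fold change of -0.06. The higher share was near the background of 16.7%, and the lower share above the 11.6%. With no replicate block 2 were lower, and the count was 3 with R0D3 replicate 1 left out, 3 with R0D3 replicate 2 left out and 3 with R40D3 replicate 2 left out. The inhibitor gene Timp1 was at 40.6 and 39.6 CPM in R0D3 and 45.8 and 50.2 CPM in R40D3 and did not pass the test (adjusted p = 0.569).

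General lysosomal genes fell more often than they rose, with 11 of 27 lower, 4 higher and a median log2 fold change of -0.24. The share of lower genes was above the background of 11.6%, and that of higher genes below the 16.7%. Ctsl, cathepsin L, was at 1940.4 and 1261 CPM in R0D3 and 850.4 and 550 CPM in R40D3 (log2 fold change -1.19, SE 0.09, adjusted p = 4.13e-05 by edgeR), and Lipa, the acid lipase, at 2164 and 2299 CPM in R0D3 and 1329 and 1131 CPM in R40D3 (log2 fold change -0.86, SE 0.12, adjusted p = 0.00108 by edgeR). Among the higher was Glb1, beta-galactosidase, at 65.7 and 70.5 CPM in R0D3 and 175 and 216 CPM in R40D3 (log2 fold change 1.51, SE 0.09, adjusted p = 1.26e-05 by edgeR). Without the block 6 were lower and 2 higher, and the count of lower genes was 6 with R0D3 replicate 2 left out. The count of higher genes was 2 with R0D3 replicate 2 left out, 2 with R40D3 replicate 1 left out and 2 with R40D3 replicate 2 left out.

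The largest losses in CPM came from abundant macrophage and lysosomal genes. Of the 10 largest, only Lpl fell by at least 2-fold. Lyz2, macrophage lysozyme, was at 29972 and 35226 CPM in R0D3 and 18934 and 20318 CPM in R40D3 (log2 fold change -0.73, SE 0.20, adjusted p = 0.0231 by edgeR). Ctsb, the protease cathepsin B, was at 22875 and 20308 CPM in R0D3 and 13522 and 10274 CPM in R40D3 (log2 fold change -0.87, SE 0.19, adjusted p = 0.0101 by edgeR), and Ctsd, cathepsin D, at 10964 and 12215 CPM in R0D3 and 7061 and 7209 CPM in R40D3 (log2 fold change -0.70, SE 0.16, adjusted p = 0.0108 by edgeR). Both R40D3 libraries were below both R0D3 libraries for each of these genes. The ferritin heavy chain gene Fth1 was at 12424 and 13425 CPM in R0D3 and 7928 and 7245 CPM in R40D3 (log2 fold change -0.77, SE 0.16, adjusted p = 0.00779 by edgeR), and the light chain gene Ftl1 at 9584 and 11815 CPM in R0D3 and 7006 and 7724 CPM in R40D3 (log2 fold change -0.53, SE 0.15, adjusted p = 0.03 by edgeR). Apoe, the apolipoprotein of macrophages, was at 15962 and 14902 CPM in R0D3 and 11355 and 9445 CPM in R40D3 (log2 fold change -0.58, SE 0.18, adjusted p = 0.0444 by edgeR). The membrane glycoprotein gene Gpnmb, the perforin-like gene Mpeg1 and the selenium carrier gene Selenop had log2 fold changes of -0.76, -0.74 and -0.55 (adjusted p = 0.00744, 0.00565 and 0.026). Of these 10, 7 lost the call without the replicate block (adjusted p up to 0.353). Leaving out R0D3 replicate 2 ended the call of 9 (up to 0.319), all but Lpl, and leaving out R0D3 replicate 1 that of 6 (up to 0.0926). Without R40D3 replicate 1 2 were lost (up to 0.099) and without R40D3 replicate 2 3 (up to 0.0738).

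Iron and antioxidant genes changed in both directions, beside a background of 16.7% higher and 11.6% lower. Besides Steap4, the iron transporter gene Slc11a2 was higher, at 111 and 105 CPM in R0D3 and 171 and 198 CPM in R40D3 (log2 fold change 0.77, SE 0.10, adjusted p = 6.84e-04 by edgeR). The transferrin receptor gene Tfrc was at 760.2 and 669 CPM in R0D3 and 847 and 1215 CPM in R40D3 and did not pass the test (adjusted p = 0.0807). The exporter gene Slc40a1, ferroportin, was lower, at 1212 and 1046 CPM in R0D3 and 725 and 532 CPM in R40D3 (log2 fold change -0.86, SE 0.09, adjusted p = 1.62e-04 by edgeR). Both ferritin chains, the iron stores, were lower as well, with the values given above. In all, 3 of 12 iron genes were higher and 5 lower, with a median log2 fold change of -0.12, and the lower count was 3 with R0D3 replicate 1 left out, 1 with R0D3 replicate 2 left out and 2 with R40D3 replicate 2 left out. Of 18 Nrf2 and antioxidant genes, 9 were lower (background 11.6%) and 3 higher, the latter share being that of the background of 16.7%, with a median of -0.24. Prdx1, peroxiredoxin 1, was at 1972 and 2445 CPM in R0D3 and 1340.5 and 1288 CPM in R40D3 (log2 fold change -0.74, SE 0.12, adjusted p = 0.00197 by edgeR), while Sod2, the mitochondrial superoxide dismutase, was at 63.2 and 74.9 CPM in R0D3 and 125 and 148 CPM in R40D3 (log2 fold change 0.98, SE 0.10, adjusted p = 1.81e-04 by edgeR). Without the block 2 of the 18 were lower and 1 higher. The lower count was 2 with R0D3 replicate 2 left out and 2 with R40D3 replicate 2 left out, and the higher count 1 with R0D3 replicate 2 left out and 1 with R40D3 replicate 1 left out.

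Of 18 Toll-like receptor and inflammasome genes, 9 were lower, 1 was higher (background 11.6% and 16.7%) and 8 were not called, with a median log2 fold change of -0.34. Tlr13, a sensor of bacterial ribosomal RNA, was at 552 and 502 CPM in R0D3 and 251 and 189.9 CPM in R40D3 (log2 fold change -1.26, SE 0.13, adjusted p = 1.62e-04 by edgeR), Tlr8 at 235 and 203 CPM in R0D3 and 146 and 105 CPM in R40D3 (log2 fold change -0.82, SE 0.09, adjusted p = 3.03e-04 by edgeR), and Tlr4, the endotoxin receptor, at 134 and 119 CPM in R0D3 and 91.3 and 64.7 CPM in R40D3 (log2 fold change -0.71, SE 0.09, adjusted p = 5.86e-04 by edgeR). With no replicate block 5 were lower and 0 higher, and the lower count was 5 with R0D3 replicate 2 left out and 5 with R40D3 replicate 2 left out. The 1 higher gene, Tlr9 (adjusted p = 0.0204), lost its call without any 1 of the 4 Wt libraries (adjusted p = 0.185 at most). Of 14 complement and Fc receptor genes, 9 were lower and 3 higher (background 11.6% and 16.7%), with a median of -0.62. The anaphylatoxin receptor gene C3ar1 was at 1039 and 950.2 CPM in R0D3 and 549 and 402 CPM in R40D3 (log2 fold change -1.07, SE 0.13, adjusted p = 4.32e-04 by edgeR), and Itgax, a complement receptor chain, at 113 and 69.7 CPM in R0D3 and 30.8 and 30.4 CPM in R40D3 (log2 fold change -1.55, SE 0.20, adjusted p = 6.29e-04 by edgeR). The complement component gene C3 was higher, at 37.4 and 26.4 CPM in R0D3 and 107 and 62.8 CPM in R40D3 (log2 fold change 1.39, SE 0.10, adjusted p = 3.16e-05 by edgeR). Without the block 5 of the 14 were lower and 1 higher. The lower count was 5 with R0D3 replicate 2 left out, and the higher count 1 with R0D3 replicate 1 left out, 1 with R40D3 replicate 1 left out and 1 with R40D3 replicate 2 left out.

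Chemokine genes held large changes in both directions, with 8 of 19 lower, 2 higher and a median log2 fold change of -0.46. The lower share was above the background of 11.6%, and the higher share below that of 16.7%. Ccr1, a receptor that osteoclasts express, stood at 41 and 29.5 CPM in R0D3 and 289 and 402 CPM in R40D3 (log2 fold change 3.25, SE 0.27, adjusted p = 6.21e-05 by edgeR), and its ligand gene Ccl9 at 247 and 309 CPM in R0D3 and 664 and 684 CPM in R40D3 (log2 fold change 1.29, SE 0.13, adjusted p = 1.59e-04 by edgeR). The inflammatory chemokine gene Ccl4 was at 54.7 and 38.8 CPM in R0D3 and 17.9 and 12.4 CPM in R40D3 (log2 fold change -1.62, SE 0.24, adjusted p = 0.0014 by edgeR), and Ccl3, a ligand of the Ccr1 receptor, at 95.6 and 79.1 CPM in R0D3 and 54.2 and 40.5 CPM in R40D3 (log2 fold change -0.89, SE 0.12, adjusted p = 8.16e-04 by edgeR). A fit with no replicate block called 5 lower, and the count was 5 with R0D3 replicate 2 left out and 5 with R40D3 replicate 2 left out. Of 8 MHC class II genes, 4 were higher and 0 lower, with a median of 0.80. Cd74, the invariant chain, was at 62.4 and 72.1 CPM in R0D3 and 166 and 125 CPM in R40D3 (log2 fold change 1.122, SE 0.19, adjusted p = 0.00291 by edgeR), and H2-Aa at 26.7 and 33.2 CPM in R0D3 and 69.5 and 50.8 CPM in R40D3 (log2 fold change 1.02, SE 0.19, adjusted p = 0.00394 by edgeR). The count of higher genes was 2 with R0D3 replicate 1 left out and 2 with R40D3 replicate 1 left out, and in the latter case 1 gene was lower. Of 19 cytokine and cytokine receptor genes, 3 were higher and 4 lower, with a median of -0.30. The share of higher members was below the background of 16.7%, and that of lower members above the 11.6%. Without the block 2 were lower and 0 higher. With R0D3 replicate 1 left out 6 were lower and 0 higher, and with R0D3 replicate 2 left out 1 was lower and 0 higher. With R40D3 replicate 1 left out 4 were lower and 1 higher, and with R40D3 replicate 2 left out 2 were lower and 1 higher. Tnfrsf1b, a TNF receptor, was at 491 and 507 CPM in R0D3 and 377 and 321 CPM in R40D3 (log2 fold change -0.52, SE 0.09, adjusted p = 0.00366 by edgeR), a call lost without R0D3 replicate 2 (adjusted p = 0.0536).

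The remaining largest falls were a mixed set. Slco2b1, an organic anion transporter gene, was at 175 and 92.8 CPM in R0D3 and 36.4 and 14 CPM in R40D3 (log2 fold change -2.49, SE 0.21, adjusted p = 7.11e-05 by edgeR), and narrowly missed the threshold without the replicate block (adjusted p = 0.0532). Il7r, the interleukin 7 receptor gene, was at 199 and 134 CPM in R0D3 and 50.2 and 17.8 CPM in R40D3 (log2 fold change -2.36, SE 0.25, adjusted p = 2.02e-04 by edgeR). Rgs1, a regulator of G-protein signalling, was at 80.1 and 110 CPM in R0D3 and 15.2 and 21.3 CPM in R40D3 (log2 fold change -2.39, SE 0.16, adjusted p = 2.19e-05 by edgeR). Within each group replicate 2 was the lower library for Slco2b1 and Il7r and the higher for Rgs1, and all 3 genes were lower in R40D3 within each pair. Bcl2a1b, of an anti-apoptotic family with near-identical copies that make its level uncertain, was at 162 and 146 CPM in R0D3 and 33.1 and 30.5 CPM in R40D3 (log2 fold change -2.27, SE 0.09, adjusted p = 1.54e-06 by edgeR). Htr2b, a serotonin receptor gene, was at 56.9 and 38.8 CPM in R0D3 and 12.2 and 8.85 CPM in R40D3 (log2 fold change -2.17, SE 0.15, adjusted p = 2.35e-05 by edgeR). The retinol dehydrogenase gene Dhrs9, the tetraspanin gene Tspan13, Zranb3, Tpbgl and the transcription factor gene Sox7 were also among the 15 largest falls by log2 fold change, with log2 fold changes of -2.29, -2.11, -2.45, -2.63 and -2.02.

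In some gene groups the 2 pairs differed from each other. Of 26 interferon-stimulated genes, 1 was lower and 0 higher (background 11.6% and 16.7%). Their median pair difference was 0.46 in replicate 1 and -0.51 in replicate 2. Irf7, a master regulator of interferon genes, stood at 21.6 and 20.9 CPM in R0D3 and 51 and 15.4 CPM in R40D3, so that R40D3 replicate 1 was the highest and R40D3 replicate 2 the lowest library (adjusted p = 0.271). The 1 lower gene, Ifih1, was not called without the replicate block (adjusted p = 0.238) or without R0D3 replicate 1 (adjusted p = 0.074), R0D3 replicate 2 (adjusted p = 0.289) or R40D3 replicate 2 (adjusted p = 0.232). Without R40D3 replicate 1 there were 5 lower genes, against 4 higher without R40D3 replicate 2. Mitosis genes were lower in 1 of 24 cases and higher in 0 (background 11.6% and 16.7%), with a median of -0.58 that was -0.22 in replicate 1 and -0.95 in replicate 2. All 24 had a negative log2 fold change, from -0.92 to -0.07, so the pairs differed in the size of the median and not in its sign. Mki67, the proliferation antigen Ki-67, was at 60.4 and 87.8 CPM in R0D3 and 45.9 and 32.5 CPM in R40D3 (log2 fold change -0.85, SE 0.26, adjusted p = 0.0391 by edgeR), with an adjusted p of 0.12 without the block. The call was lost without R0D3 replicate 1 (adjusted p = 0.107), R0D3 replicate 2 (adjusted p = 0.2) or R40D3 replicate 2 (adjusted p = 0.0696). Top2a, a topoisomerase of dividing cells, was at 44.4 and 73.7 CPM in R0D3 and 37.7 and 35.8 CPM in R40D3 (adjusted p = 0.149), with R0D3 replicate 2 well above the other 3 libraries. Without R40D3 replicate 1, which left replicate 2 as the only R40D3 library, 20 of the 24 mitosis genes were called lower. DNA replication genes were higher in 3 of 22 cases and lower in 1, both shares below the background of 16.7% and 11.6%. The lower gene was Pcna, the polymerase clamp gene, at 170.5 and 201 CPM in R0D3 and 99.1 and 91.1 CPM in R40D3 (log2 fold change -0.95, SE 0.16, adjusted p = 0.00295 by edgeR). The replication count was 6 lower without R40D3 replicate 1, and 0 higher without the block or without R0D3 replicate 2.

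**Figure D5:**
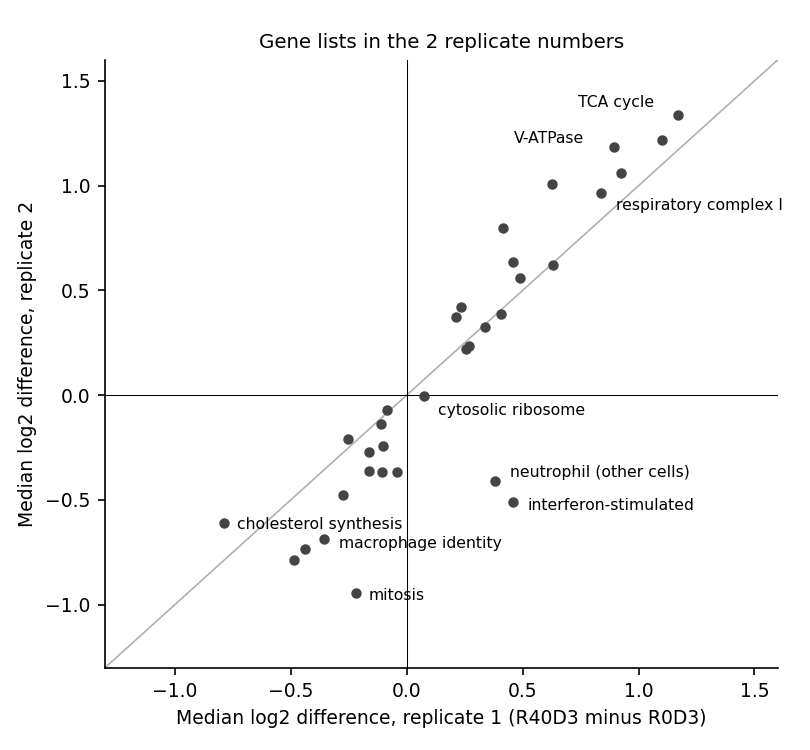
Median log2 difference between R40D3 and R0D3 in replicate 1 (horizontal) and replicate 2 (vertical) for 33 gene lists with at least 10 members tested, with the line of equality (bone resorption, at 3.07 and 3.34, lies outside the frame). Respiratory, TCA, vacuolar ATPase and cholesterol lists lie near the line, while interferon-stimulated genes and neutrophil markers lie at lower right and mitosis below the line.

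Markers of other cell types were followed as lists, although several lists had few members that reached the minimum count for testing. The 14 stromal fibroblast markers summed to 1781 and 1607 CPM in R0D3 and 2121 and 2063 CPM in R40D3, and 1 of 13 tested was higher and 1 lower (background 16.7% and 11.6%), neither without the replicate block. The higher call was lost without R0D3 replicate 1 or R40D3 replicate 2, and the lower without any of the libraries other than R0D3 replicate 1. The collagen gene Col1a1 stood at 729.9 and 645 CPM in R0D3 and 846 and 811 CPM in R40D3 (adjusted p = 0.641). The 11 neutrophil markers summed to 435 and 168 CPM in R0D3 and 554 and 128 CPM in R40D3, so they followed the replicate number, and 0 of 10 were called, against 2 lower without R40D3 replicate 1. S100a9 stood at 131 and 52.1 CPM in R0D3 and 169.7 and 36.9 CPM in R40D3 (log2 fold change 0.01, adjusted p = 0.982; without R40D3 replicate 1 the log2 fold change was -0.59). Of 4 B cell markers tested, the immunoglobulin gene Ighm was lower, at 36.1 and 41.7 CPM in R0D3 and 15.8 and 14.8 CPM in R40D3 (log2 fold change -1.34, SE 0.11, adjusted p = 5.18e-05 by edgeR). Cd79a, Ebf1 and Cd79b were not called, with log2 fold changes of 0.50, 0.12 and -0.41 (adjusted p = 0.703, 0.802 and 0.648 by edgeR). Ms4a1 did not reach the minimum count for testing. The erythroid markers summed to at most 0.559 CPM in any Wt library and the mast cell markers to at most 1.06 CPM. The T cell receptor gene Trac, the dendritic cell factor gene Zbtb46 and the endothelial receptor gene Kdr were the other called markers: Trac went from 4 counts to 1.62 and 2.08 CPM and Zbtb46 from 0.582 and 0.994 to 3.66 and 4.46 CPM, while Kdr was at 17.3 and 6.52 CPM in R0D3 and 8.73 and 3.3 CPM in R40D3. Kdr was not called without the block (adjusted p = 0.33) or without R0D3 replicate 1 (adjusted p = 0.114). Trac was the only 1 tested of 8 T and NK cell markers, and Zbtb46 the only 1 of 7 dendritic cell markers. Of 4 osteoblast and 3 megakaryocyte markers tested, 0 were called by edgeR, while DESeq2 called 1 megakaryocyte marker lower. The part of all these cell types in the other results was not tested.

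The gene deleted in the series did not pass the test in Wt cells: Impdh2 was at 22.3 and 28.2 CPM in R0D3 and 25.7 and 27.7 CPM in R40D3 (log2 fold change 0.09, SE 0.11, adjusted p = 0.636 by edgeR), and its paralogue Impdh1 at 33.1 and 30.6 CPM in R0D3 and 30.9 and 31.2 CPM in R40D3 (log2 fold change -0.04, SE 0.10, adjusted p = 0.828 by edgeR). Of 9 guanine nucleotide genes tested, 2 were higher and 1 lower, and 0 were called without the replicate block. With any 1 of the 4 Wt libraries left out 0 were higher, and without R0D3 replicate 1 or R40D3 replicate 2 also 0 were lower. The lower share was near the background of 11.6%, and the higher share not far above the 16.7%, so neither is a result about these genes. The salvage enzyme gene Hprt was the lower one, at 151 and 178 CPM in R0D3 and 114 and 118 CPM in R40D3 (adjusted p = 0.00748, and 0.107 without the block), and was not called without R0D3 replicate 1 (adjusted p = 0.0579) or R40D3 replicate 2 (adjusted p = 0.0507). Whether the Wt response differed from that of LysM-cKO cultures was tested as an interaction. With edgeR, 0 of 14030 genes (0%) passed, 840 had an unadjusted p under 0.05 (5.99% of genes), and DESeq2 called 7. The smallest edgeR adjusted p was 0.580. It was shared by 5 genes described above, those with the lowest unadjusted p among them. Arsb stood in the LysM-cKO libraries at 35.6 and 59.1 CPM in R0D3 and 532 and 1038 CPM in R40D3 (difference of log2 fold changes, Wt minus LysM-cKO, 1.29, SE 0.20, adjusted p = 0.58), and Glb1 at 70.2 and 89.2 CPM in R0D3 and 117 and 162 CPM in R40D3 (difference of log2 fold changes, Wt minus LysM-cKO, 0.71, SE 0.13, adjusted p = 0.58). C3 was there at 25.8 and 18.8 CPM in R0D3 and 122 and 93.1 CPM in R40D3 (difference of log2 fold changes, Wt minus LysM-cKO, -0.89, SE 0.14, adjusted p = 0.58), Ighm at 37.6 and 43.5 CPM in R0D3 and 29.1 and 28.9 CPM in R40D3 (difference of log2 fold changes, Wt minus LysM-cKO, -0.86, SE 0.15, adjusted p = 0.58), and Itpr3 at 36.1 and 54.5 CPM in R0D3 and 50.4 and 85.2 CPM in R40D3 (difference of log2 fold changes, Wt minus LysM-cKO, 0.95, SE 0.17, adjusted p = 0.58). None of the 5 passed the test. In the LysM-cKO libraries Impdh2 stood at 7.35 and 7.03 CPM in R0D3 and 7.71 and 8.37 CPM in R40D3, below each Wt library. Mmp9 stood there at 13.1 and 4.73 CPM in R0D3 and 5052 and 9064 CPM in R40D3 (difference of log2 fold changes, Wt minus LysM-cKO, 0.79, SE 0.74, adjusted p = 0.878), and Cd36 at 1799 and 2062 CPM in R0D3 and 416 and 368 CPM in R40D3 (difference of log2 fold changes, Wt minus LysM-cKO, -0.21, SE 0.16, adjusted p = 0.849). A difference between the genotypes was thus not detected by edgeR at this number of libraries, which does not show that the responses were alike.

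Among the 3977 called genes, 1375 had an exon that overlaps one of another gene in GENCODE M21, and the use of strand in counting is not given in the sources used here, so their values are uncertain. Of the genes named here this holds for Acp5, Adam8, Arsb, Atp6v1e1, Atp6v1h, Bcl2a1b, Bcl6, Cd74, Cd81, Cd9, Ckmt1, Csf1r, Ctsb, Ctsd, Ctsl, Cyp51, Esrra, Ftl1, Gapdh, Glb1, Hk1, Hk3, Htr2b, Impdh2, Irf7, Itgam, Itgav, Itpr3, Jdp2, Jun, Junb, Kbtbd11, Mmp12, Mt2, Nfkb2, Ostm1, Plekhm1, Selenop, Slc11a2, Slc37a2, Slc4a2, Slco2b1, Tln1, Top2a, Tpbgl, Zranb3, mt-Co1 and mt-Nd1.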

How the data were processed

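Values were raw counts of reads per gene, deposited by the authors as 1 table for each replicate number of the cultures, each with 55401 gene identifiers, of which 55141 (99.5%) matched a symbol. Per the labels' protocols, TRIzol was used to extract RNA, and a kit for mRNA to prepare the libraries. Per the submitters' processing notes, FastQC 0.11.2, Trimmomatic 0.36, HISAT2 2.1.0 and DESeq2 1.12.4 were used with GRCm38; the counting tool, annotation and strand setting are not given in the sources used here. All 8 culture libraries were fitted with edgeR 4.0.16 (R 4.3.3, TMM scaling, quasi-likelihood F test, two-sided, Benjamini-Hochberg adjustment over all genes tested) with 4 groups and the replicate number as a block; genes passed filterByExpr with a minimum count of 10 and a total of 15. CPM are counts scaled to the TMM-adjusted library size. RPKM divided them by the merged exon length in GENCODE M21.

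The pairing comes from the shared tables and from the data: in each of the 6 pairs of groups, same-numbered libraries deviated together from their group means (r 0.343 to 0.609 across genes). Chi-square per degree of freedom between replicates was 10.7 in R0D3 and 19.8 in R40D3, so no library was a copy of another. Exact intervals cover counting error only. The procedure was also run on simulated counts with a fixed spread, fewer changed genes and none of the very large changes seen here. That run checks the code and does not measure the error rate in these data. Alternatives left out the block or 1 library, used only the 4 Wt libraries, other scalings or filters, or DESeq2 1.42.0; one, without genes with overlapping exons, was added after seeing the data.

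The groups compared and the 47 gene lists were chosen with earlier results of these data known. Genes were named by rule: the 15 largest rises and falls in log2 fold change among called genes with at least 5 CPM in the higher group, the 10 largest in CPM, up to 4 members of each list by p and 2 by level, and 9 fixed genes; other list members named here were chosen after their values were seen. Where the lower group had 0 counts in all, a floor of 3 counts per library gave a lower bound. Some of the genes the rule names are not reported here.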

Additional observations from a re-analysis of the deposited data

How the results depend on the processing

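No call changed sign under any alternative run. Without the replicate block, that is without the pairing by number, 2366 genes were called in place of 3977, of which 773 were lower in place of 1631; all 2366 were among the paired calls, and the cause was not tested. Leaving out 1 library in turn gave 2040 to 2977 calls, 1332 to 1796 of them higher and 708 to 1388 lower, with fewer samples in each fit and the lone library assumed to vary like the other groups. Without genes with overlapping exons, an alternative chosen after seeing the data, 1382 genes were higher, from fewer genes tested. With upper-quartile scaling the median of all genes moved to -0.068 on the log2 scale, and 45.9% of calls were higher in place of 59.0%. The other scalings, the filters, the older edgeR setting, the 4 Wt libraries alone and DESeq2 gave 3167 to 5195 calls. For the interaction, DESeq2 called 7 genes and the other alternatives 0. The log2 fold change of S100a9 was 0.01 with all libraries and ranged from -0.59 (without R40D3 replicate 1) to 0.38 (without R40D3 replicate 2). Among 400 called list members and named genes, 122 lost the call without the block, 137 without at least 1 Wt library and 28 with DESeq2. The 3 counts of the floor stood for 0.157 to 0.186 CPM in the Wt libraries, so changes of genes below that level could not be measured at this depth.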
